A study of Rattus norvegicus with 20 samples.

Results

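The major histocompatibility complex (MHC) genes RT1-Bb, RT1-Ba, RT1-Da, RT1-Db1 and RT1-N2, with the invariant chain gene Cd74, were followed in embryonic rat testis. Testes came from the embryo or from organ culture, with or without the antiandrogenic fungicide vinclozolin or the antiandrogen drug flutamide. These genes were 6 of the 14217 that the annotation of the Affymetrix rat arrays assigns to a probe set of their own. Every probe set of these symbols was taken, 11 of 31042. The genes were selected on their values at embryonic day (E) 14, where RT1-Bb was higher after vinclozolin, so the E14 values are described without a test. Of the 11 probe sets, 7 from 5 genes reached the 40th percentile of an array's signals on at least 2 arrays and were tested among 22526. The pair for RT1-Db1 and 1 each for RT1-Bb and RT1-Ba were below it on all 20 arrays.

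RNA came from Sprague-Dawley rats, in 10 groups of 2 arrays. Pregnant rats received vinclozolin at 100 mg/kg/day, or its dimethyl sulfoxide (DMSO) vehicle, in a course of daily injections given as E8 to E14. Testes were taken at E13, during that course, at E14, its last day, or at E16, after it (12 in utero arrays). Other testes were removed at E13 and cultured for 3 days with the mesonephros attached, which was removed before RNA extraction. They received 50 µM vinclozolin or DMSO (4 arrays), or 0.5 µM flutamide or ethanol (4 arrays). Each culture control was the opposite gonad of treated pairs. Male sex had been assigned by PCR for Sry. How many embryos or litters entered a sample is not given in the sources used here.

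MHC class II molecules present peptides taken up from outside the cell to helper T cells, and are made mainly by dendritic cells, B cells and activated macrophages. Each is a pair of an alpha and a beta chain. In the rat, RT1-Ba and RT1-Bb encode the chains of the RT1-B molecule, and RT1-Da and RT1-Db1 those of RT1-D. Cd74, the invariant chain, holds new class II molecules until they reach the compartment where peptides are loaded. Class I molecules present peptides from inside the cell and need beta-2 microglobulin (B2m). RT1-N2 is a nonclassical class I gene. The fetal testis contains resident macrophages among its other cells.

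In the RefSeq annotation of GRCr8, the class II genes lie close together on chromosome 20. RT1-Da is at chr20:4515393-4520387, RT1-Db1 at chr20:4550594-4560182, RT1-Ba at chr20:4577057-4581650 and RT1-Bb at chr20:4598475-4604118. RT1-N2 is on the same chromosome at chr20:2645980-2650260, and Cd74 is at chr18:56527071-56536406. Class II promoters are known to carry an X box and a Y box that bind the factors through which the coactivator Ciita acts. The stretches below run from base -130 to base -21 relative to the start that the RefSeq promoter table counts from (110 bases each, GRCr8, 5′ to 3′ on the gene's strand). That start is the outer end of the annotated gene for RT1-Bb and RT1-Ba. It lies inside the gene by 22 bases for RT1-Da, 20 for RT1-Db1, 135 for Cd74 and 350 for RT1-N2, so the Cd74 stretch is within the annotated gene. They are shown because all 4 class II chains carry the Y-box word, and the differences of their probe sets at E14, given below, ran from -0.43 to 3.06. Capitals mark the Y-box word CTGATTGG and the X-box word TAGCAAC, which do not overlap each other.
RT1-Bb: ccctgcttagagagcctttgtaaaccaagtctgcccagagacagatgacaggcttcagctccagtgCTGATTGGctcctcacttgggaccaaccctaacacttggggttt
RT1-Ba: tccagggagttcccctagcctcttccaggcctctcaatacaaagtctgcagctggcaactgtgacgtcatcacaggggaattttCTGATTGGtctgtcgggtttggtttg
RT1-Da: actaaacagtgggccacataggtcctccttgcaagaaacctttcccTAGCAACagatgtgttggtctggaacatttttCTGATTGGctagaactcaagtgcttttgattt
RT1-Db1: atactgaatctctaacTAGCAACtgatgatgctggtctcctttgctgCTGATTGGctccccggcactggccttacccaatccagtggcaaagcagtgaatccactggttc
Cd74: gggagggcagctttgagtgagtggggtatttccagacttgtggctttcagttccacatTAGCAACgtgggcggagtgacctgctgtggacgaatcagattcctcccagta
The regions are chr20:4604139-4604248 on the minus strand for RT1-Bb, chr20:4576927-4577036 on the plus strand for RT1-Ba, chr20:4515285-4515394 on the plus strand for RT1-Da, chr20:4560183-4560292 on the minus strand for RT1-Db1 and chr18:56527076-56527185 on the plus strand for Cd74. Counted from the table's start, CTGATTGG began at base -64 in RT1-Bb, -46 in RT1-Ba, -52 in RT1-Da and -83 in RT1-Db1, and was not among the letters of the Cd74 or RT1-N2 window. TAGCAAC began at base -84 in RT1-Da, -114 in RT1-Db1 and -72 in Cd74, and was not among the letters for RT1-Bb, RT1-Ba or RT1-N2. On either strand, the Y-box word is in 3.5% and the X-box word in 3.58% of the 33469 rat promoters of 300 bases. These are matches of letters, not measured sites. The words were chosen after the promoters were read, so their presence is no test. Only the exact words are marked, so a gene without one may hold a variant of that box. A link of the words to the E14 differences was not tested.

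RT1 genes differ between rat haplotypes, and Sprague-Dawley is an outbred stock. The probe sequences were not used here, so a signal that differs through an allele and one that differs through the amount of RNA cannot be told apart. The signals of different probe sets are not compared with each other. Some arrays stood apart. The pair of E13 arrays numbered 1 had signals of 758.6 and 896.0 for Xist, a transcript of the inactive X chromosome, against 20.4 and 17.9 on the other E13 pair. Such a signal goes against the testis label, while this pair also had signals of 2363.1 and 2912.9 for Eif2s3y, a gene of the Y chromosome. The E14 arrays also differed in Xist, at 174.9 and 184.4 with vehicle and at 32.0 and 489.9 with vinclozolin, and in the early response gene Fos, at 1534.6 and 39.8 with vehicle and at 18.3 and 289.2 with vinclozolin. Their Eif2s3y signals were 902.6 to 1248.9, against 2363.1 to 3495.7 on the other in utero arrays. The first E14 vehicle array had summed signals of 14578.1 for red cell markers, 1294.6 for mesonephros markers and 3666.6 for Sertoli cell markers, against 3839.1, 419.1 and 11689.7 on the second. The flutamide experiment was scaled separately, with a trimmed mean signal of 107.0 against 210.1 in utero and 218.1 in the vinclozolin culture. Its beta-actin 3′ to 5′ ratio was 9.08 to 11.06 against at most 3.9 elsewhere. Xist read 168.2 to 211.9 there, against 5.1 to 112.8 in the vinclozolin culture. Eif2s3y read 668.3 to 764.8, against 3115.1 to 3330.2.

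**Figure D1:**
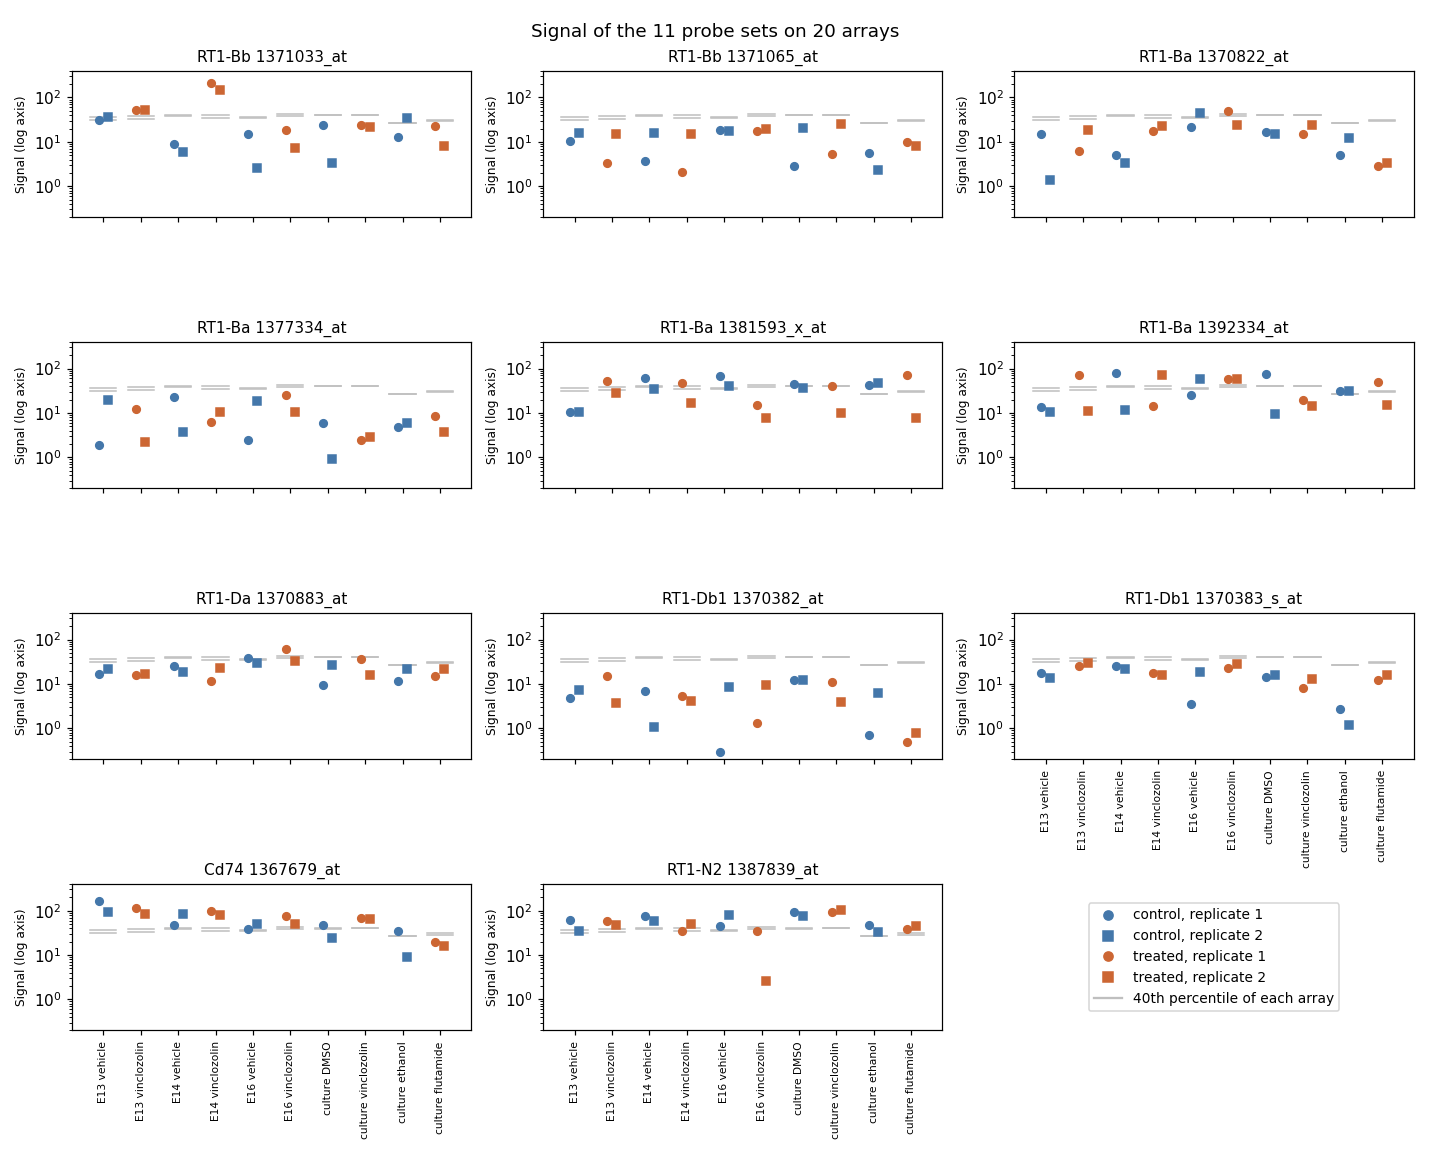
Signal (log axis) of each of the 11 probe sets on the 20 arrays, by group; circles and squares are replicates 1 and 2, blue is control, orange is treated, and grey lines mark the 40th percentile of each array. For RT1-Bb 1371033_at, the E14 vinclozolin arrays at 213.3 and 147.7 stand above the other 18.

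RT1-Bb, the beta chain of RT1-B, was highest in the E14 vinclozolin testes. Its probe set 1371033_at read 213.3 and 147.7 there and 8.9 and 5.8 in the E14 vehicle testes. On the scale of log2(signal + 16), vinclozolin was higher by 3.06, an 8.32-fold ratio of the offset signals, and this was the largest rise at E14 among the 22526 tested probe sets (rank 1). It is a description of the values that chose the gene. The vehicle signals were at percentiles 14.6 and 12.8 of their arrays and the vinclozolin signals at 71.6 and 63.3. Since a signal that low may hold no RNA of the gene, the vinclozolin mean was also set against the vehicle arrays' 40th percentile (geometric means 177.5 and 39.5), which gave a 4.49-fold ratio.

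The same probe set gave the following levels in the other groups. At E13, RT1-Bb read 30.9 and 35.7 in the vehicle pair, against 53.2 and 53.6 in the vinclozolin pair. At E16 it read 14.8 and 2.6 in the vehicle pair, against 18.5 and 7.3 in the vinclozolin pair. The E13 groups did not overlap and the E16 groups did. In culture, it read 24.3 and 3.4 with DMSO, 23.6 and 22.1 with vinclozolin, 13.2 and 34.1 with ethanol and 22.8 and 8.0 with flutamide. Among the in utero groups, ordered by mean log2(signal + 16), E14 vinclozolin came first at 7.6 ± 0.34 (SD, n = 2), then E13 vinclozolin at 6.12 ± 0.01 (SD, n = 2) and E13 vehicle at 5.62 ± 0.10 (SD, n = 2). E16 vinclozolin at 4.83 ± 0.40 (SD, n = 2), E16 vehicle at 4.58 ± 0.51 (SD, n = 2) and E14 vehicle at 4.54 ± 0.14 (SD, n = 2) lay within their spread of each other. The other RT1-Bb probe set, 1371065_at, did not share the E14 difference. It read 3.8 and 15.5 in the vehicle pair, against 2.1 and 15.1 in the vinclozolin pair at E14, and 2.1 to 25.3 over all arrays, at percentile 28.8 or lower.

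RT1-Ba, the alpha chain that pairs with RT1-Bb, differed by less than 1 on the log2(signal + 16) scale at E14 with each of its probe sets. Probe set 1370822_at read 5.0 and 3.4 in the vehicle pair, against 17.7 and 22.3 in the vinclozolin pair, so the vinclozolin pair was higher, by 0.83 on the log2(signal + 16) scale. All 4 signals were below the 40th percentile of their arrays (34.5 to 41.2), so the size rests on the offset of 16. That size moved in 3 of the 8 alternatives run. Probe set 1381593_x_at read 60.6 and 34.0 in the vehicle pair, against 48.2 and 16.9 in the vinclozolin pair, a difference of -0.43. Probe set 1392334_at read 77.6 and 11.5 in the vehicle pair, against 14.6 and 70.3 in the vinclozolin pair, a difference of 0.02. Its arrays within a group were further apart than its group means. The last, 1377334_at, stayed between 0.9 and 25.8 on all arrays and differed by -0.18 at E14.

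For the chains of RT1-D, the vinclozolin pair was not above the vehicle pair at E14. RT1-Da, the alpha chain, read 25.5 and 18.5 in the vehicle pair, against 11.4 and 22.8 in the vinclozolin pair, a log2 difference of -0.21 with overlapping groups. RT1-Db1, the beta chain, was under the 40th percentile of every array with both of its probe sets. At E14, 1370382_at read 6.8 and 1.1 with vehicle against 5.4 and 4.1 with vinclozolin, and 1370383_s_at read 26.0 and 21.4 against 18.0 and 16.3.

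Cd74 was at or above the 40th percentile on 16 of the 20 arrays, and RT1-N2 on 18. At E14 Cd74 read 47.4 and 85.4 in the vehicle pair, against 100.7 and 80.3 in the vinclozolin pair, and the groups overlapped, with a log2 difference of 0.40. RT1-N2 read 76.4 and 59.1 in the vehicle pair, against 34.6 and 49.5 in the vinclozolin pair, a difference of -0.53 with the vinclozolin pair lower. Of the 7 tested probe sets, 2 had both vinclozolin arrays above both vehicle arrays at E14 (RT1-Bb 1371033_at and RT1-Ba 1370822_at) and 1 had both below (RT1-N2). Over all tested probe sets those shares were 14% and 13.1%. Because E14 chose the genes, nothing is read from these counts.

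**Figure D2:**
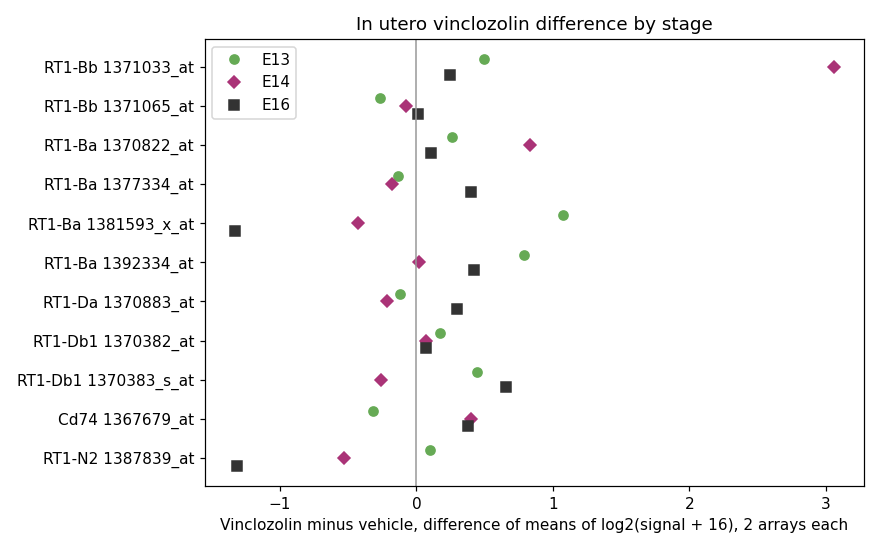
Vinclozolin minus vehicle for each probe set at E13 (circles), E14 (diamonds) and E16 (squares), as differences of group means of log2(signal + 16) over 2 arrays each. RT1-Bb 1371033_at at E14 lies at 3.06, and the other 10 probe sets at E14 lie between -0.53 and 0.83.

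Markers of cells that carry class II molecules were read on the same E14 arrays. The 23 macrophage markers summed to 2900.6 and 1745.2 in the vehicle pair, against 1621.1 and 1502.8 in the vinclozolin pair. Both vinclozolin arrays were lower for 8 of the 23 genes, among them Cd68, Aif1, C1qa and Lyz2, and higher for 1, Itgb2, where 13.1% of all tested probe sets were lower and 14% higher. The macrophage genes Cd163, Fcgr2b, Ptprc, Itgam and Cx3cr1 were below the 40th percentile on all 4 E14 arrays, and Itgam and Cx3cr1 were among the 8. Cd68 read 42 and 37.3 in the vehicle pair, against 37.2 and 29.9 in the vinclozolin pair. The list genes at E14 were not filtered, while the shares are over probe sets that passed the filter. The 9 dendritic cell markers summed to 764.5 and 584.3 in the vehicle pair, against 716.1 and 702.6 in the vinclozolin pair. Of the 9, 3 were higher on both vinclozolin arrays (Batf3, Itgae and Cd1d1; 14% over all tested probe sets) and none was lower on both, while Itgax, Flt3 and Clec9a were below the 40th percentile on all 4. The 6 B cell markers summed to 130.3 and 41.3 in the vehicle pair, against 55.6 and 74.3 in the vinclozolin pair, with Ms4a1, Cd79b, Blk and Cr2 below the 40th percentile on all 4. The part of such cells in the RT1-Bb signal was not tested. In whole testis, fewer cells of a type and less RNA per cell cannot be told apart.

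Other genes of class II and class I presentation were read at E14 beside these. Ciita, the class II coactivator, was below the 40th percentile on all E14 arrays, at 22.4 and 9 in the vehicle pair, against 25.9 and 17.7 in the vinclozolin pair. Among the 17 genes of the class II list on the array, 3 were higher on both vinclozolin arrays (RT1-Bb, RT1-DMa and Lgmn) and 3 lower on both (RT1-Db1, Rfxap and Cd86), which is near the shares of 14% and 13.1% over all tested probe sets. RT1-Db1 and Cd86 were below the 40th percentile on all E14 arrays. RT1-DMa, a chain of the molecule that loads peptide onto class II, read 55.7 and 62.5 in the vehicle pair, against 70.2 and 75.4 in the vinclozolin pair. Of 32 genes of the interferon response, 4 were higher on both vinclozolin arrays and 3 lower on both, beside 14% and 13.1% over all tested probe sets. Of the 32, 9 were below the 40th percentile on all E14 arrays. In the class I list, 6 of 26 genes were higher on both (Tap1, Psmb8, Psmb9, Nlrc5, RT1-CE16 and RT1-M3-1). RT1-N2 alone was lower on both, beside the same 14% and 13.1%. Tap1 and Nlrc5 were below the 40th percentile on all E14 arrays. The cause of these differences was not tested. RT1-Bb differed on the E14 vinclozolin arrays by 3.15 when the first E14 vehicle array was left out and by 2.96 when the second was. Both vehicle signals were below the 40th percentile, so leaving out either could change little. These values also chose the gene, and nothing on the cause is read from them.

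**Figure D3:**
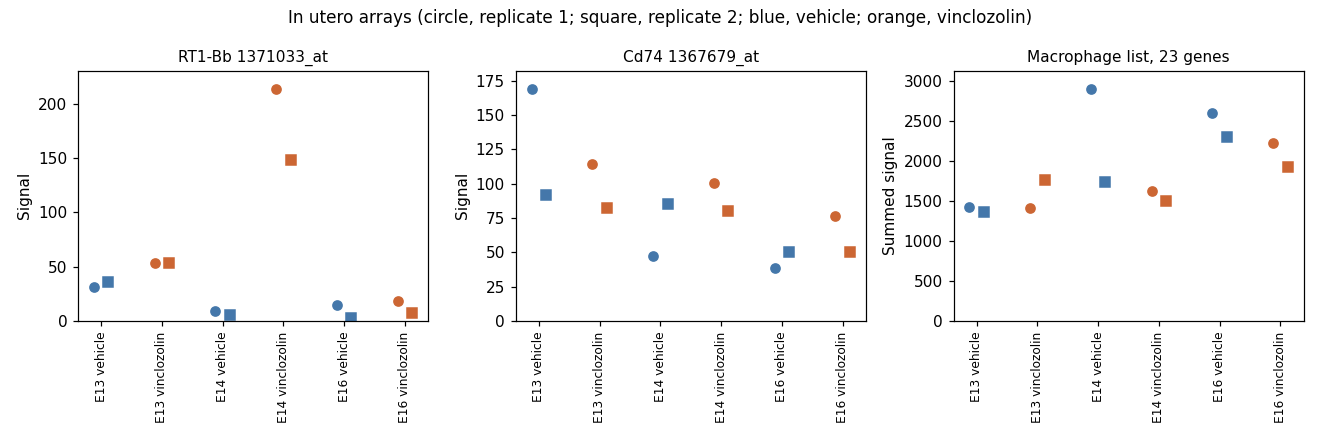
Signal of RT1-Bb 1371033_at and Cd74, and summed signal of the macrophage list (23 genes), on the 12 in utero arrays; blue is vehicle, orange is vinclozolin, circles and squares are replicates 1 and 2. RT1-Bb is at 213.3 and 147.7 in E14 vinclozolin testes, where the macrophage sums are 1621.1 and 1502.8.

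Between E13 and E16, on arrays that did not choose the genes, Cd74 and RT1-Bb fell. Cd74 read 168.8 and 91.5 at E13 and 38.6 and 50.2 at E16 in vehicle testes. With vinclozolin, it read 114.3 and 82.2 at E13 and 76.2 and 50.2 at E16. Every E13 array was above every E16 array. Cd74 fell by 1.23 ± 0.35 (SE) in vehicle testes (limma, adjusted p = 0.0385), and by 0.88 ± 0.25 (SE) averaged over vehicle and vinclozolin (limma, adjusted p = 0.0199). Leaving out the E13 arrays numbered 1, where Cd74 was highest, gave -0.84 (limma, adjusted p = 0.305) and -0.58 (limma, adjusted p = 0.219), and the calls were lost. In the averaged comparison the call was also lost without the first E13 vehicle, first E13 vinclozolin, first E16 vehicle or second E16 vinclozolin array, taken 1 at a time (limma, highest adjusted p = 0.0947).

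RT1-Bb fell by 1.17 ± 0.27 (SE; 95% confidence interval -1.73 to -0.60) in the averaged comparison (limma, adjusted p = 0.0057). All 4 E13 arrays, 30.9 to 53.6, were above all 4 E16 arrays, 2.6 to 18.5. Without the E13 arrays numbered 1 the difference was -1.20 (limma, adjusted p = 0.0356), and it stayed past the threshold in all 18 alternatives run. In vehicle testes alone it was -1.04 ± 0.38 (SE; limma, adjusted p = 0.104), which missed the threshold. RT1-Bb reached the 40th percentile on 6 arrays, from the E13, E14 vinclozolin and ethanol groups. The fit with no filter was among the 18 alternatives. The E16 signals were below the 40th percentile, so the size rests on the offset of 16.

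For RT1-Ba and RT1-Da, the filter on low signals decided what could be seen. RT1-Ba 1370822_at and RT1-Da entered the test only through 2 E16 arrays above the 40th percentile, so their direction was set by the filter, and their filtered test is not read. RT1-Ba 1370822_at read 15.1, 1.4, 6.3 and 18.8 at E13 (vehicle, then vinclozolin) and 21.6, 45.2, 50.6 and 24.0 at E16. It was higher at E16 by 0.97 ± 0.26 (SE), and passed when every probe set was tested with no filter (limma, adjusted p = 0.0108). RT1-Da read 17.2, 21.4, 16.0 and 16.8 at E13 and 38.2, 30.0, 61.8 and 32.3 at E16, higher by 0.71 ± 0.24 (SE), and missed the threshold with no filter (limma, adjusted p = 0.055). For both, no E13 array reached any E16 array. How many other probe sets did so was not counted, and nothing is read from it. The values with the filter are given only to show how the calls depended on the processing. The RT1-Da value was past the threshold with the filter (limma, adjusted p = 0.0489) and not in 14 of the 17 alternatives in which it could be tested, among them the removal of any single array other than the second E16 vinclozolin array (limma, highest adjusted p = 0.212). That of RT1-Ba 1370822_at, with the filter at limma adjusted p = 0.0134, was not past it in 5 of 17, among them without the second E13 vehicle, first E13 vinclozolin, second E16 vehicle or first E16 vinclozolin array (limma, highest adjusted p = 0.0803). In vehicle testes alone and with no filter, the 2 did not pass, at 1.04 (limma, adjusted p = 0.0807) and 0.50 (limma, adjusted p = 0.463).

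The remaining tested probe sets did not pass in either stage comparison. RT1-Ba 1381593_x_at differed by 1.37 ± 0.50 (SE; limma, adjusted p = 0.104) in vehicle testes and by 0.17 ± 0.35 (SE; limma, adjusted p = 0.79) averaged. RT1-Ba 1392334_at differed by 0.99 ± 0.67 (SE) and 0.81 ± 0.47 (SE). RT1-N2 differed by 0.26 ± 0.36 (SE) and -0.45 ± 0.26 (SE). Without the first E16 vinclozolin array, the averaged RT1-N2 difference was -0.80 and passed (limma, adjusted p = 0.0231), with the remaining E16 vinclozolin array at 2.6. In all, 1 of the 7 tested probe sets passed in vehicle testes, where 8.55% of all tested probe sets did, and 4 of 7 passed in the averaged comparison, where 18.7% did. Of those 4, RT1-Ba 1370822_at and RT1-Da passed the filter only through E16 arrays, so nothing is read from that count.

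**Figure D4:**
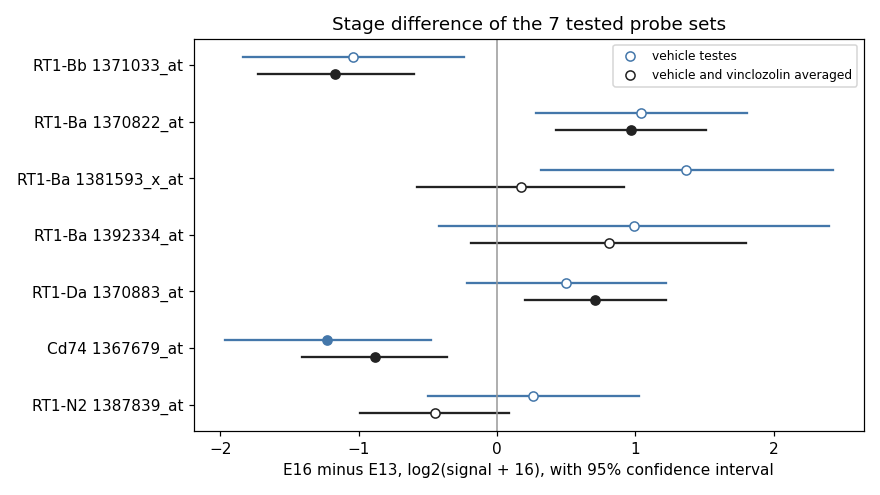
E16 minus E13 for the 7 tested probe sets, as differences of log2(signal + 16) with 95% confidence intervals from limma; blue is vehicle testes, black is vehicle and vinclozolin averaged, and filled points have an adjusted p under 0.05. RT1-Bb (-1.17) and Cd74 (-0.88) lie below 0 and RT1-Ba 1370822_at (0.97) and RT1-Da (0.71) above it in the averaged comparison, the latter pair tested only through E16 arrays over the 40th percentile.

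Lists of antigen presentation genes, which include the members described above, were read over the same days. In the averaged comparison, 4 of 13 tested genes of the class II list rose and 2 fell, with a median of 0.18, where 23.9% of all tested genes passed and their median was 0.01. Ifi30, a lysosomal reductase that opens antigens for class II, rose by 0.58 ± 0.09 (SE; limma, adjusted p = 0.000296). Ctss, the protease cathepsin S that trims the invariant chain, rose by 0.75 ± 0.18 (SE; limma, adjusted p = 0.0085). The other risers were RT1-DMb and RT1-Da, of which RT1-Da entered only through 2 E16 arrays and lost its call in 14 of 17 alternatives. Those that fell were RT1-Bb and Cd74. Because RT1-Da, RT1-Bb and Cd74 are members described above, the counts for this list are not counts of other genes alone. In vehicle testes alone, 2 of the 13 rose (Ifi30 and Ctss) and 1 fell (Cd74), with a median of 0.40, against 11% of all tested genes.

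Of 21 tested genes of the class I list, 5 rose and 1 fell in the averaged comparison, with a median of 0.12, near the 23.9% of all tested genes that passed. B2m, the light chain of every class I molecule, read 1144.7 and 1996 in E13 vehicle testes and 4922.6 and 5036.5 in E16 vehicle testes. It rose by 1.71 ± 0.24 (SE; limma, adjusted p = 0.000301) in vehicle testes and was the only gene of the class I list to pass there. Averaged, it rose by 1.54 ± 0.17 (SE; limma, adjusted p = 9.68e-06). RT1-M3-1, a nonclassical class I gene, rose by 1.18 ± 0.20 (SE; limma, adjusted p = 0.000541), and RT1-CE12, a class I gene, fell by 1.17 ± 0.28 (SE; limma, adjusted p = 0.00713). Genes of the interferon response rose in 8 of 24 cases and fell in 1 in the averaged comparison, with a median of 0.42, beside the same 23.9%. Ifitm3, an interferon-induced membrane protein, rose by 2.03 ± 0.14 (SE; limma, adjusted p = 5.42e-08), Ifi27 by 1.74 ± 0.13 (SE; limma, adjusted p = 1.33e-07) and Ifi44 by 1.88 ± 0.19 (SE; limma, adjusted p = 2.9e-06).

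Cell type markers were read over the same days. The macrophage list summed to 1362 to 1760.1 on the 4 E13 arrays and to 1932.7 to 2601.5 on the 4 E16 arrays. In the averaged comparison 6 of its 20 tested genes rose (limma), beside 23.9% of all tested genes that passed in either direction. The red cell list rose in 6 of 7 genes and the Leydig cell list in 6 of 6. Of the 6 dendritic cell genes tested, 1 rose (Cd1d1). Only 1 B cell gene was tested, and it did not pass. The part of these cells in the falls of Cd74 and RT1-Bb was not tested.

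Vinclozolin against vehicle at the stages and in the culture that did not choose the genes gave no member past the threshold. At E13, limma called 0% of the 22526 probe sets, with 402 at an unadjusted p under 0.05. RT1-Bb differed by 0.50 ± 0.38 (SE; 95% confidence interval -0.31 to 1.30) at E13, with both vinclozolin arrays higher. Cd74 differed by -0.32 ± 0.35 (SE). RT1-Ba 1381593_x_at read 10.3 and 10.6 in the vehicle pair, against 53.5 and 28.6 in the vinclozolin pair at E13, a difference of 1.07 ± 0.50 (SE; limma, adjusted p = 1).

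At E16, limma called 0%, with 1506 at an unadjusted p under 0.05. RT1-Bb differed by 0.24 ± 0.38 (SE; 95% confidence interval -0.56 to 1.05). RT1-N2 read 45.7 and 77.9 in the vehicle pair, against 34.2 and 2.6 in the vinclozolin pair, lower by 1.32 ± 0.36 (SE) on the log2 scale (limma, adjusted p = 0.508). The signal of 2.6 was at percentile 6 of its array, against percentiles 35.6 to 54.4 on the other 3, and without that array the difference was -0.60. RT1-Ba 1381593_x_at read 66.9 and 40.7 in the vehicle pair, against 15.3 and 7.7 in the vinclozolin pair, a difference of -1.33 ± 0.50 (SE; limma, adjusted p = 0.621).

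The difference between the E16 and E13 vinclozolin effects passed for 0% of probe sets with limma, with 613 at an unadjusted p under 0.05. It was -0.25 ± 0.54 (SE) for RT1-Bb, -1.42 ± 0.51 (SE) for RT1-N2 and -2.41 ± 0.71 (SE; limma, adjusted p = 1) for RT1-Ba 1381593_x_at. The 1392334_at probe set of the same gene differed by -0.37 ± 0.94 (SE). The stages also differed in exposure, since E13 fell during the injections and E16 after their end.

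In culture, vinclozolin at 50 µM against DMSO gave 0% called by limma, with 610 at an unadjusted p under 0.05. Cd74 read 48.1 and 23.8 with DMSO and 69.4 and 64.6 with vinclozolin, so both treated arrays were higher, by 0.72 ± 0.35 (SE; 95% confidence interval -0.03 to 1.46; limma, adjusted p = 1). RT1-Bb differed by 0.47 ± 0.38 (SE; 95% confidence interval -0.33 to 1.28), with the second DMSO array at 3.4 setting the mean, and by -0.05 without it. Flutamide at 0.5 µM against ethanol also gave 0% called by limma, with 494 at an unadjusted p under 0.05. Cd74 read 34.3 and 9.1 with ethanol and 19.3 and 15.8 with flutamide, a difference of -0.08 ± 0.35 (SE). RT1-Bb differed by -0.33 ± 0.38 (SE; 95% confidence interval -1.13 to 0.48). The vinclozolin effect minus the flutamide effect passed for 0% with limma, with 563 at an unadjusted p under 0.05, and was 0.80 ± 0.54 (SE; 95% confidence interval -0.34 to 1.94) for RT1-Bb. The doses of the compounds differed, as did the vehicle, the scaling and the beta-actin ratio of the experiments. These cannot be told apart from the compounds. RT1-N2 read 91.8, 76.7, 94.6 and 106.0 in the vinclozolin experiment (DMSO, then vinclozolin).

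Over the 12 in utero arrays, correlations between members ran from -0.57 to 0.61. RT1-Bb had a Pearson correlation of 0.50 with Cd74, -0.07 with RT1-Ba 1370822_at, -0.53 with RT1-Da and -0.02 with RT1-N2 on the log2(signal + 16) values. Cd74 and RT1-Da had -0.57 (Spearman -0.82), and RT1-Ba 1370822_at and RT1-Da had 0.61. The pair of RT1-Ba probe sets 1381593_x_at and 1392334_at, made from the same sequence record, had 0.14. These points share stage and array, and are a description. The genes most like RT1-Bb by Pearson correlation over the same arrays were Mcm9 (0.873), Brd9 (0.831), Depdc5 (0.826), Gpr137b (0.813) and Cox10 (0.80). Because the E14 vinclozolin pair dominates the RT1-Bb profile, genes high on that pair are the ones such a ranking selects. Mcm9, a DNA helicase gene, read 96.5 and 96.7 there and 47.5 to 77.7 on the other 10 in utero arrays. Most like Cd74 were Cbln1 (0.922), Dhx32 (0.889), Map2k1 (0.879), Pphln1 (0.865) and Mtap (0.848), none of which was in the lists of MHC genes.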

How the data were processed

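RNA of 20 samples was hybridized to Affymetrix rat arrays, 1 array each. The deposited values are linear intensity signals made with MAS5, with GCOS also named for the cultures, per the submitters' processing notes. The authors' scaling was left as deposited: trimmed means (2% cut at each end) were equal within each experiment. A genome build for the probes is not given in the sources used here. From these signals, 57 control rows were left out of 31099, and log2(signal + 16) was fitted in limma 3.58.1 (R 4.3.3) with 1 mean per group, a trended prior (6.76 prior and 10 residual degrees of freedom) and Benjamini-Hochberg adjustment over the 22526 probe sets (72.6%) that reached their array's 40th percentile on at least 2 arrays. The threshold was an adjusted p under 0.05. The number of arrays (2 a group) limits the precision. What a p-value sets a difference against is the variation from sample to sample. The fit was tested on simulated data.

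The members and lists were chosen with earlier results of these data known, and the promoter words after the promoters were read. A list gene with several probe sets was represented by that of highest mean signal. Named from each list were up to 3 genes of smallest p past the threshold, and the 5 genes most correlated with RT1-Bb and with Cd74. Other genes of a list were named after their values were seen. All 6 members had a promoter in RefSeq's table. None of the germ cell markers listed had a probe set of its own. Alternatives changed the offset, normalization, filter, arrays fitted, trend and replicate block, and left out each array.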

Additional observations from a re-analysis of the deposited data

Results flagged for a closer look

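No group was large enough for a check of single outlying arrays. The vinclozolin difference of 2 of the 11 probe sets had opposite directions at different stages in every array. How many of all probe sets did so was not counted. At E14 alone, 14% of all tested probe sets had both vinclozolin arrays above both vehicle arrays, and 13.1% had both below. Nothing is therefore read from the count of 2. RT1-Ba 1381593_x_at was higher after vinclozolin at E13, by 1.07 on the log2(signal + 16) scale, and lower at E16, by -1.33. The test of that difference missed the threshold (limma, adjusted p = 1). RT1-Db1 1370383_s_at was higher at E13 by 0.44 and at E16 by 0.66, and lower at E14, by -0.26. All of its signals were below the 40th percentile of their arrays, and the difference between E14 and the other stages was not tested, because E14 chose the genes.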

How the results depend on the processing

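Counts are of probe sets past the threshold. For E16 minus E13 in vehicle testes, the count of 1925 was 268 with the 4 arrays compared alone and 998 with the in utero arrays alone, 863 without the E13 arrays numbered 1, and 848 to 1574 leaving out 1 array. The count of 1 member (Cd74) was 0 with an offset of 1, with no filter, with the compared or the in utero arrays alone and without the E13 arrays numbered 1, and 0 to 1 leaving out 1 array (0 without the first E13 or either E16 vehicle array). Averaged, the count of 4223 was 2436 without the E13 arrays numbered 1 and 2748 to 3997 leaving out 1 array, the lowest without the first E16 vinclozolin array. The count of 4 members was 2 with an offset of 1, a filter at the median, the compared arrays alone or without the E13 arrays numbered 1, and 1 to 3 leaving out 1 array. Counts of 0 became 0 to 4 at E13 and 0 to 28 at E16 leaving out 1 array (4 without the first E13 vehicle and 28 without the second E16 vehicle array), and with an offset of 1 they became 5 at E16 and 4 for flutamide. No member was among the calls of these vinclozolin comparisons.

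The E14 difference of RT1-Bb was 4.44 with an offset of 1, 1.76 with 64, and 2.17 counted from the 40th percentile, and 2.81 to 3.3 leaving out 1 array. Differences that missed the threshold changed sign leaving out 1 array: RT1-N2 between stages in vehicle testes (-0.04 to 0.57), Cd74 at E13 (-0.71 to 0.07) and with flutamide (-0.59 to 0.42), and RT1-Bb at E16 (-0.12 to 0.61), with vinclozolin in culture (-0.05 to 1.00), with flutamide (-0.72 to 0.06) and in the difference between stages (-0.61 to 0.11, and 0.09 with an offset of 1). The causes were not tested. Of 715 values recomputed, 633 were taken as unchanged. Differences among them kept their direction and side of the threshold or moved by less than the spread. Counts of calls stayed within a fixed ratio of the main count or, like it, held no call. The alternatives without the E13 arrays numbered 1, the 40th percentile and the crossed pairing were chosen after seeing the data.

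The replicate block gave 1724 and 4051 calls between stages and 1 at E16, and the RT1-Da call was lost (adjusted p = 0.0715 with limma). Same-numbered arrays deviated with correlations of 0.6 at E13, -0.05 at E14, -0.11 at E16, 0.12 and 0 in the cultures, and -0.19 between E13 and E16 vehicle. The crossed block of the E16 arrays gave 5 calls. The labels do not say that a number marks a pair. Signals under the 40th percentile limit every statement on RT1-Db1, and on RT1-Bb in every comparison, since its E14 vehicle, E16 and most culture arrays and 1 E13 vehicle array were below it.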
